A study of Mus musculus with 6 samples.

Results

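Wnt ligands, their Frizzled receptors and the canonical effectors of the pathway were examined in satellite cells with and without an intact estrogen receptor α gene. The members were every listed symbol of the form Wnt or Fzd with a number, with or without a final a or b, plus the coreceptors Lrp5 and Lrp6, the transcriptional coactivator β-catenin (Ctnnb1), its DNA-binding partners Lef1 and Tcf7l2, and the feedback target Axin2. This gave 35 genes of 24980 listed symbols: 19 ligands, 10 Frizzled genes, 2 coreceptors and 4 effectors. Of these, 9 were expressed, here meaning at least 1 TPM in at least 3 of the 6 libraries, 25 were above 0 but below that level, and 1 was listed at 0 throughout. TPM is a measure of transcript abundance scaled for transcript length and to a common total, so that levels can be compared between genes.

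Wnt proteins are lipid-modified secreted ligands that bind a Frizzled receptor together with a coreceptor. In the canonical branch, Frizzled and Lrp5 or Lrp6 stop the destruction complex from degrading β-catenin, which then enters the nucleus and activates genes with TCF/LEF proteins. Other branches act through Frizzled and planar polarity proteins or through small GTPases. In muscle, Wnt7a acting on Fzd7 is known to expand satellite cells through planar polarity, canonical signals are associated with differentiation of their progeny, and fibre-derived Wnt4 is known to help keep satellite cells quiescent.

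Satellite cells are the stem cells of skeletal muscle. They were sorted by flow cytometry from hindlimb muscle of adult C57BL6/J mice, and each of 6 libraries was made from total RNA. The 3 libraries labelled scERα WT and the 3 labelled scERα KO both came from mice given 10 mg tamoxifen in all, the agent that induces Cre here, so tamoxifen is shared by both groups. The labels name neither the Cre line or its promoter, nor the sex of the mice, nor whether a library holds 1 animal, and all p-values therefore reflect differences among these libraries only, some of which may be technical.

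Esr1, the targeted gene, held 6.94 to 7.53 TPM in WT and 2.92 to 3.87 TPM in KO, without overlap (limma adjusted p = 0.0925). A value per gene does not resolve a deleted exon. Listed values summed to 295306 to 334382 TPM per library, so the listed symbols do not themselves add to a common total. The values carry no sequencing depth, so no counting interval can be given. All 10 satellite cell markers, Pax7 among them, passed the expression filter, with summed levels of 385 to 519 TPM in WT and 409 to 550 TPM in KO. Sdc4 alone held 156.74 to 266.13 TPM of these sums. Its KO mean was lower than its WT mean, while 8 of the 10 markers had a higher KO mean. Transcripts used as markers of other cell types were present. The 8 endothelial markers summed to 12.6 to 19.6 TPM in WT and 12.4 to 25.8 TPM in KO. The 7 mural markers summed to 38.1 to 38.8 and 38.1 to 58.1 TPM, and 7 Schwann cell markers to 6.70 to 9.0 and 8.16 to 21.1 TPM. A few genes made up much of these sums. Tek, on the endothelial list, held 6.04 to 8.32 TPM over all libraries. On the mural list Notch3 held 14.18 to 23.16 TPM and Acta2 10.73 to 19.35 TPM, while Cspg4 and Kcnj8 did not exceed 0.57 TPM. The 9 fibroblast markers summed to 61.8 to 162 TPM in WT and 102 to 132 TPM in KO. Of these, Col3a1 held 21.8 to 116.57 TPM and Dpt 23.43 to 50.86 TPM, while Pdgfra did not exceed 0.31 TPM. The 6 proliferation markers summed to 3.71 to 7.61 and 6.51 to 36.9 TPM. Among these lists no marker was at 0 in any library. Of the 7 leukocyte markers 1, Cd3e, was at 0 in some libraries, and the list summed to 2.76 to 9.40 TPM in WT and 4.61 to 7.81 TPM in KO. In a bulk library, fewer cells of a type and less RNA per cell cannot be told apart.

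Wnt4 was the 1 ligand of 19 that was expressed. It encodes a secreted ligand used in both canonical and other branches, and lies on chromosome 4 at 137277489 to 137299726 on the plus strand (GRCm38). The other 18 ligands stayed at or below 0.41 TPM in every library, and 11 of the 19 stayed below 0.1 TPM. Wnt3a was listed at 0 in all 6 libraries, and Wnt7a at 0 in 5 of them and at 0.01 TPM in WT library 3. Among receptors the order was led by Fzd4, among coreceptors by Lrp6, and among effectors by Ctnnb1.

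**Figure D1:**
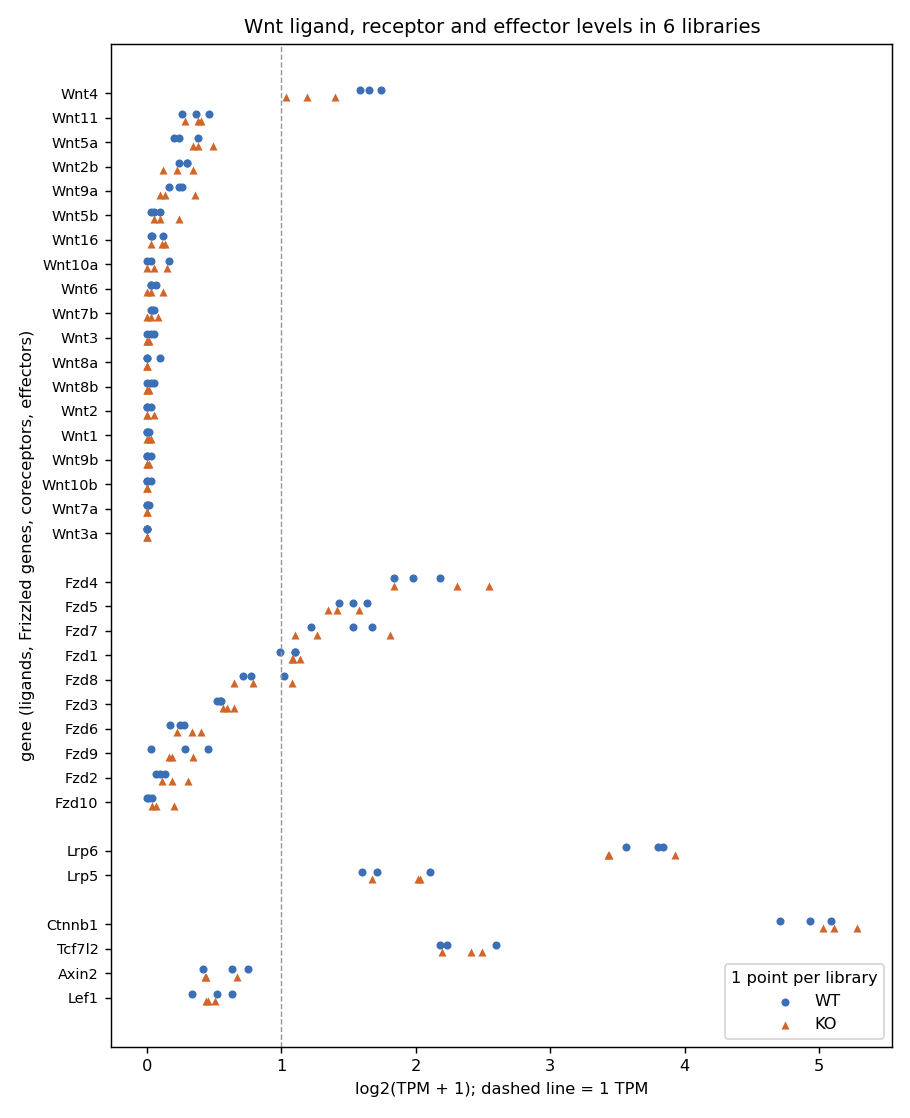
Level of each of the 35 genes on the log2(TPM + 1) scale, with 1 point per library, WT as circles and KO as triangles, and genes ordered within ligands, Frizzled genes, coreceptors and effectors by their mean. The dashed line marks 1 TPM, which Wnt4 exceeds in all 6 libraries and no other ligand reaches in any.

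The upstream sequences of 4 members are shown as examples, and no motif was tested against expression. Wnt4 is the expressed ligand, and Wnt11 the ligand next in mean level (the upstream of its 2 RefSeq windows is shown). Fzd7 is the receptor tied to Wnt7a, and Axin2 the feedback target. The sequences come from RefSeq on GRCm38.p6, plus strand, 5′ to 3′, and end at the base before the RefSeq start site. Wnt4 is the exception, since its window was ended at the base before the first exon that GENCODE vM21 annotates. Capitals mark GGGCGG, the GC box bound by Sp-family factors, and CTTTG, the core of the TCF/LEF site, on either strand, so that they also appear as CCGCCC and CAAAG. The windows are chr4:137277385-137277488 for Wnt4, chr7:98834862-98835111 for Wnt11, chr1:59481897-59482146 for Fzd7 and chr11:108920099-108920348 for Axin2.
Wnt4: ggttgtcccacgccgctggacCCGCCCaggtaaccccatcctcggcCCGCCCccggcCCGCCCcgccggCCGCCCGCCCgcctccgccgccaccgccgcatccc
Wnt11: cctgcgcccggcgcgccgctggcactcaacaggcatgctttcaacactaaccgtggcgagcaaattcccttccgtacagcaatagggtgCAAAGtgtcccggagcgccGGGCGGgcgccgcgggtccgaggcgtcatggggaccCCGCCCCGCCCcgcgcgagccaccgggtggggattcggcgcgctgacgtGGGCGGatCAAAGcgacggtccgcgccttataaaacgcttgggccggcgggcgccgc
Fzd7: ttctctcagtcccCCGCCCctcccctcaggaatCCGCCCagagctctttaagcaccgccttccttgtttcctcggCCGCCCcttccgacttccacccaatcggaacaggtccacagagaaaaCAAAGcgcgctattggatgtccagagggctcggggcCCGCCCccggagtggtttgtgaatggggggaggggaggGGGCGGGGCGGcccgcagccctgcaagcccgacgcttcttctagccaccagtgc
Axin2: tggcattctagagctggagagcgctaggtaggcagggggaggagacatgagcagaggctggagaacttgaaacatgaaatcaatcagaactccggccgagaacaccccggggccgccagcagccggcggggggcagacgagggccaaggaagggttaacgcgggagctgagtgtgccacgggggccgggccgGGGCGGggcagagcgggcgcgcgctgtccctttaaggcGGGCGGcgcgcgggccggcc

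The Wnt4 stretch printed was 83.7% G and C and held 5 GC boxes and 0 TCF/LEF cores. Wnt11 held 4 GC boxes and 2 cores, the second of which reads CTTTGAT on the minus strand, a longer form of the TCF/LEF site. Fzd7 held 6 and 1, and Axin2 2 and 0. RefSeq windows of 250 bases before the start were matched for 25 of the 35 members, 33 windows in all. Some members have several windows, and some windows of Lef1 and of Ctnnb1 overlap, so the windows are not independent. A GC box was found on either strand in 75.8% of these windows, against 32.7% of all 32851 windows of that length, which include many predicted and noncoding genes. CTTTG was found in 48.5% against 48.6%, and CTTTGAT, which contains it, in 6.06% (2 windows) against 3.21%. The other longer form searched, CTTTGAA, was in 0 of the 33 windows against 4.46% of all. Counted per gene, 21 of the 25 members had a GC box and 11 had CTTTG in any window.

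The full palindromic estrogen response element, searched on both strands, was in 0 of the 33 windows and in 0.0639% of all windows. Its half-site GGTCA was in 33.3% of member windows and 35.2% of all. The full 250 bases before the RefSeq start of Wnt4 held neither the full element nor the half-site. The later part of that window overlaps the first Wnt4 exon that GENCODE annotates. A match here is a run of letters, and a missing match says only that those letters are not in this window.

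Wnt4 held 2.35, 2.01 and 2.14 TPM in WT libraries 1, 2 and 3, and 1.05, 1.64 and 1.29 TPM in KO libraries 1, 2 and 3. Every KO library lay below every WT library. The means were 2.17 ± 0.172 and 1.33 ± 0.297 TPM (SD, n = 3 each), and KO thus averaged 61.2% of WT. On the log2(TPM + 1) scale, which understates changes of genes at this level, the difference was -0.45 with a standard error of 0.13 and a 95% interval from -0.76 to -0.14. Its unadjusted p was 0.00937 and its adjusted p 0.267 by limma over 8971 genes tested, which is above the threshold of 0.05.

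Wnt4 was the 1 of 9 expressed members with an unadjusted p under 0.05, and the 1 whose groups did not overlap. By limma, 0 of the 9 passed after adjustment, against 0.0557% of all genes tested. The background at an unadjusted p under 0.05 was 2.66% lower and 7.89% higher in KO. KO lay wholly below WT in 3.07% of genes tested and wholly above in 13.5%. The median log2 difference of all genes tested was 0.12. With median-of-ratios scaling it was 0.009, and the background at an unadjusted p under 0.05 was then 4.85% lower and 3.96% higher. Wnt4 then differed by -0.55, with a limma adjusted p of 0.161. Over the alternative settings tried its limma adjusted p ran from 0.143 to 0.611. The log2 difference itself was -0.69 with a pseudocount of 0.1 and -0.18 with one of 5.

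The share of ligand transcripts that came from Wnt4 was lower in KO too. Summed over the 19 ligands, WT libraries held 3.34, 3.30 and 3.36 TPM, and KO libraries 2.10, 3.41 and 2.20 TPM. KO library 2 thus had the highest ligand sum of all, while the other two KO libraries had the lowest. Wnt4 made up 70.4%, 60.9% and 63.7% of these sums in WT and 50.0%, 48.1% and 58.6% in KO. The remaining ligands together held 0.99, 1.29 and 1.22 TPM in WT and 1.05, 1.77 and 0.91 TPM in KO, and here the groups overlapped. These shares hold Wnt4 itself and were chosen after its values were seen, so they describe the same difference and are given without a test.

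**Figure D2:**
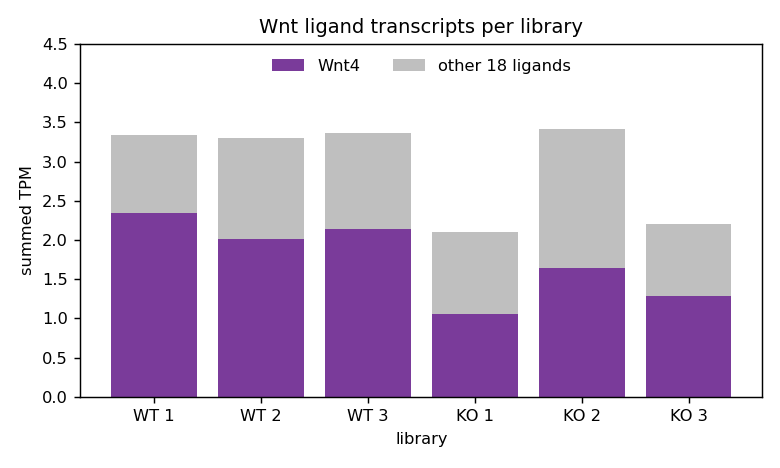
Summed TPM of the 19 Wnt ligand genes in each library, with Wnt4 as the lower part of each bar and the other 18 ligands as the upper part. The Wnt4 part lies between 2.01 and 2.35 TPM in the WT libraries and between 1.05 and 1.64 TPM in the KO libraries, while the upper part overlaps between the groups.

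A ratio within a library does not depend on how libraries are scaled to each other. Set against the summed Frizzled transcripts of the same library, Wnt4 amounted to 29.6%, 18.04% and 22.5% in WT and to 12.9%, 12.6% and 13.1% in KO. The KO libraries lay close together and all below WT. This ratio, too, was chosen after the values were seen and has no test. Of the marker lists, the satellite cell, endothelial, mural, Schwann and proliferation sums given above all overlapped between the groups, with higher upper ends in KO. The mature fibre list summed to 10.0 to 25.0 TPM in WT and 7.04 to 37.9 TPM in KO, also with overlap. The part of any of these cell types, or of proliferation, in the Wnt4 level or its difference was not tested.

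Below Wnt4, the ranges of neighbouring ligands in the order overlapped in every case. Wnt11, a ligand of the non-canonical branch, lay between 0.20 and 0.38 TPM, and Wnt5a, another of that branch, between 0.15 and 0.41 TPM. Wnt11 was the higher of these in 3 of 6 libraries. Wnt2b lay at 0.09 to 0.27 TPM and Wnt9a at 0.07 to 0.28 TPM. Wnt5b and Wnt16 reached 0.18 and 0.10 TPM, and Wnt10a 0.12 TPM. Wnt1, Wnt2, Wnt3, Wnt6, Wnt7b, Wnt8a, Wnt8b, Wnt9b and Wnt10b did not exceed 0.09 TPM. Of the 18 ligands above 0 in any library, Wnt4 included, 7 had a higher and 11 a lower mean in KO, and at the levels of all but Wnt4, without known depth, small differences were not detectable.

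Fzd4 was the most abundant Frizzled gene in all 6 libraries. It encodes the receptor that also binds Norrin in endothelium, and lies on chromosome 7 at 89404355 to 89413134, plus strand. It held 2.58, 3.53 and 2.94 TPM in WT and 2.57, 4.84 and 3.96 TPM in KO. KO library 1 lay just below the lowest WT library while the other two KO libraries lay above all of WT, so the groups overlapped. The log2 difference was 0.23, with a 95% interval from -0.21 to 0.67 (limma adjusted p = 0.686). Without KO library 1 it was 0.43 (unadjusted p = 0.03, adjusted p = 0.323 by limma), and without KO library 2 it was 0.07. Its adjusted p ran from 0.314 to 0.965 over the alternative settings. Fzd4 made up 32.5%, 31.7% and 30.9% of summed Frizzled transcripts in WT and 31.7%, 37.0% and 40.3% in KO, with KO libraries 2 and 3 above the WT range.

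Fzd5, Fzd7 and Fzd1 came next. Fzd5, on chromosome 1 at 64730558 to 64737751, minus strand, held 1.70, 2.11 and 1.90 TPM in WT and 1.67, 1.99 and 1.55 TPM in KO, which overlapped. Its log2 difference was -0.09, with a 95% interval from -0.37 to 0.20 (limma adjusted p = 0.80). Fzd7, on chromosome 1 at 59482424 to 59486955, plus strand, held 1.33, 2.20 and 1.89 TPM in WT and 1.15, 2.50 and 1.40 TPM in KO. KO library 2 was the highest and KO library 1 the lowest of all 6, and the log2 difference of -0.08 had a 95% interval from -0.56 to 0.39 (limma adjusted p = 0.882). Fzd5 was above Fzd7 in 4 of 6 libraries, so their order is not separated from the spread.

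Fzd1, on chromosome 5 at 4753839 to 4758035, minus strand, varied least. It held 0.99, 1.15 and 1.15 TPM in WT and 1.13, 1.20 and 1.11 TPM in KO, with a log2 difference of 0.03 and a 95% interval from -0.23 to 0.30 (limma adjusted p = 0.915). Fzd8 reached 1 TPM in 2 libraries and was not tested, at 0.64, 1.03 and 0.71 TPM in WT and 0.57, 1.12 and 0.73 TPM in KO. KO library 1 lay below and KO library 2 above every WT library.

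The other 5 Frizzled genes were lower still. Fzd3, a receptor of the planar polarity branch, held 0.44, 0.47 and 0.46 TPM in WT and 0.48, 0.57 and 0.51 TPM in KO. It was the 1 of 25 low members whose groups did not overlap, against 7.46% of the 11535 listed genes that were above 0 but not tested. Fzd6 lay between 0.13 and 0.32 TPM, Fzd9 between 0.02 and 0.37 TPM, Fzd2 between 0.05 and 0.24 TPM and Fzd10 between 0 and 0.15 TPM. With no filter on low values, none of the 25 low members had an unadjusted p under 0.05 by limma, and the smallest was 0.0949 for Fzd10.

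**Figure D3:**
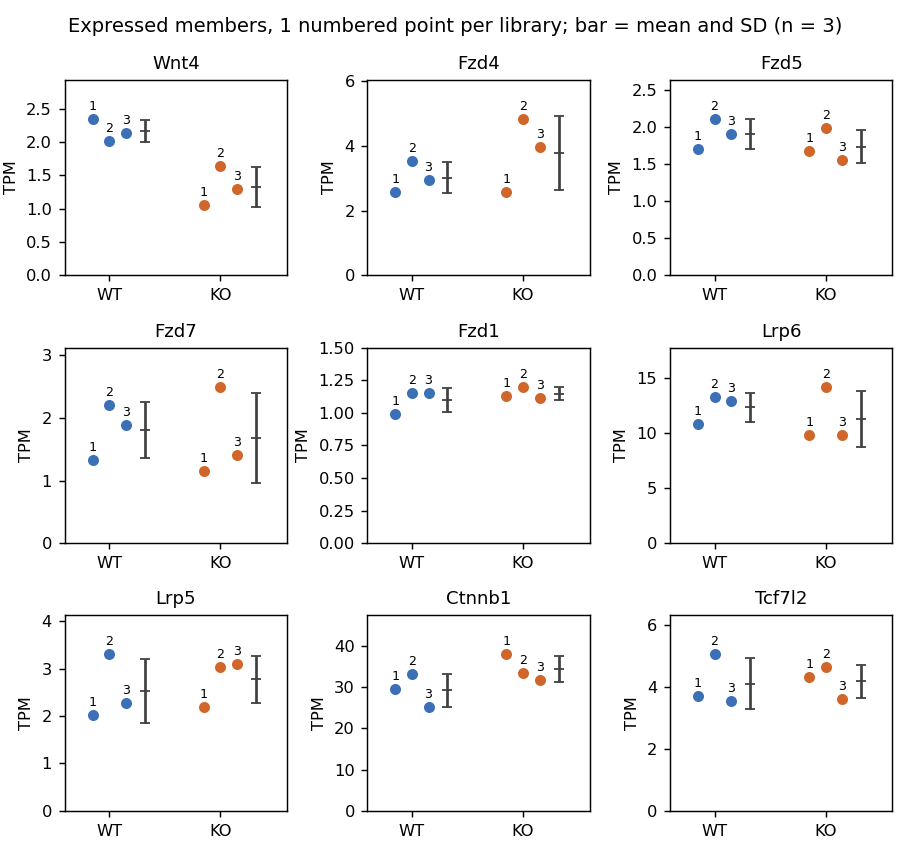
TPM of the 9 expressed members, each in its own panel with an axis from 0, with 1 numbered point per library and a bar for the mean and SD of 3 libraries. In the Wnt4 panel the KO points lie below all WT points, and in the other 8 panels the points of the groups overlap.

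Within each genotype, most Frizzled genes were high in the same library. KO library 2 was the highest KO library in 9 of 10 Frizzled genes, Fzd9 being the exception. WT library 2 was the highest WT library in 7 of 10, with a tie with WT library 3 in Fzd1. Of these genes, Fzd2 and Fzd10 did not exceed 0.24 and 0.15 TPM. The order was not confined to Frizzled genes. Among the 9 expressed members, 4 of them Frizzled genes, KO library 2 was highest of KO in 7. WT library 2 was highest of WT in 7 of the 9. The share of all genes with this order is not given here. Relative to each gene's mean over 6 libraries, KO library 2 stood at 1.42 for Fzd4, 1.43 for Fzd7 and 1.40 for Fzd8. KO library 1 stood at 0.755, 0.659 and 0.713 for the same genes. Wnt4 was also highest of KO in KO library 2, but it stood there at 0.939 of its mean, below all 3 WT libraries. Its lowest WT library was WT library 2.

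The sum over 10 Frizzled genes was 7.95, 11.1 and 9.53 TPM in WT and 8.12, 13.1 and 9.83 TPM in KO. The libraries numbered 2 were the highest of their groups. The numbers do not pair them. The endothelial, satellite cell and mural sums were highest in the same libraries: the endothelial list stood at 12.6, 19.6 and 14.6 TPM in WT and 12.4, 25.8 and 19.6 TPM in KO, and the satellite cell list at 422, 519 and 385 TPM and 409, 550 and 419 TPM. The mural list stood at 38.3, 38.8 and 38.1 TPM in WT, a narrow range, and 38.1, 58.1 and 53.9 TPM in KO. The Schwann cell list was lowest in WT library 2 and highest in KO library 3. The fibroblast list did not follow this order, at 83.2, 61.8 and 162 TPM in WT and 102, 117 and 132 TPM in KO, nor did the mature fibre list in WT, at 10.0, 13.1 and 25.0 TPM, against 7.04, 37.9 and 33.8 TPM in KO. The part of these cells in the Frizzled levels was not tested.

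**Figure D4:**
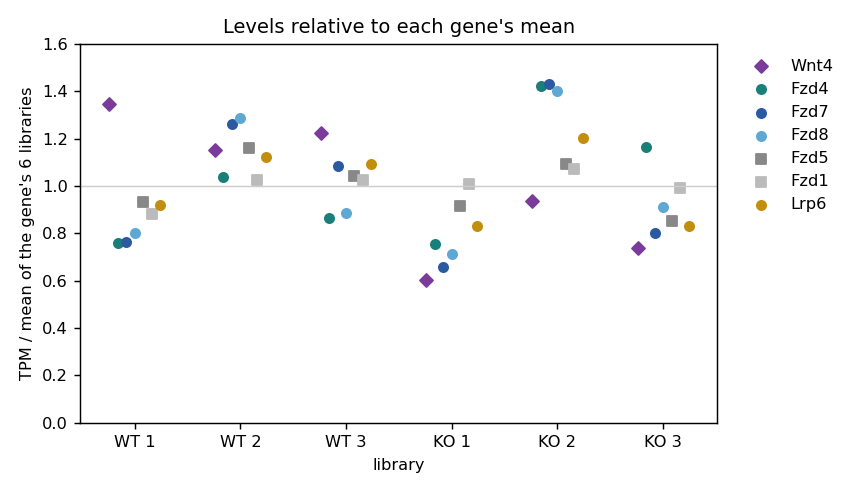
TPM of Wnt4, 5 Frizzled genes and Lrp6 in each library divided by the mean of that gene over the 6 libraries, with 1 point per gene and library. Fzd4, Fzd7 and Fzd8 reach 1.40 to 1.43 in KO library 2 and 0.659 to 0.755 in KO library 1, while Wnt4 lies above 1 in the WT libraries and below 1 in the KO libraries.

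The coreceptors were both expressed, with Lrp6 above Lrp5 in every library. Lrp6, on chromosome 6 at 134446476 to 134566965, minus strand, held 10.86, 13.29 and 12.93 TPM in WT and 9.81, 14.22 and 9.85 TPM in KO. KO library 2 was the highest of all and the other two KO libraries the lowest. The log2 difference was -0.13, with a 95% interval from -0.53 to 0.26 (limma adjusted p = 0.778). Lrp5, on chromosome 19 at 3584828 to 3686564, minus strand, held 2.03, 3.30 and 2.27 TPM in WT and 2.20, 3.04 and 3.09 TPM in KO, which overlapped. Its log2 difference was 0.10, with a 95% interval from -0.29 to 0.49 (limma adjusted p = 0.825). The ratio of Lrp6 to Lrp5 ranged from 3.19 in KO library 3 to 5.70 in WT library 3.

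Ctnnb1, which encodes β-catenin, was the most abundant member. It lies on chromosome 9 at 120929216 to 120960507, plus strand, and held 29.57, 33.11 and 25.15 TPM in WT and 37.91, 33.52 and 31.64 TPM in KO. Among KO libraries, 1 and 2 lay above all of WT and library 3 did not. The means were 29.3 ± 3.99 and 34.4 ± 3.22 TPM (SD, n = 3 each), and the log2 difference of 0.23 had a 95% interval from -0.12 to 0.57 (limma adjusted p = 0.619). With protein-coding genes rescaled to a common total it was 0.30 (unadjusted p = 0.0287, adjusted p = 0.182 by limma), and with median-of-ratios scaling 0.08. The median of all genes tested was 0.18 in the first of these settings and 0.009 in the second. The limma adjusted p of Ctnnb1 ran from 0.182 to 0.969 over the alternative settings. β-catenin is controlled largely by degradation of the protein, which RNA levels do not show.

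Of the 2 TCF/LEF factors among the members, Tcf7l2 was expressed and Lef1 stayed below 1 TPM. Tcf7l2, on chromosome 19 at 55741820 to 55933654, plus strand, held 3.71, 5.04 and 3.53 TPM in WT and 4.32, 4.63 and 3.59 TPM in KO. The KO values lay within the WT range, and the log2 difference of 0.03 had a 95% interval from -0.32 to 0.38 (limma adjusted p = 0.945). Lef1 held 0.44, 0.55 and 0.26 TPM in WT and 0.37, 0.36 and 0.42 TPM in KO, again within the WT range.

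Axin2, a scaffold of the destruction complex and the most widely used readout of canonical signalling, was low in both groups. It held 0.34, 0.69 and 0.55 TPM in WT and 0.36, 0.59 and 0.35 TPM in KO, all below 1 TPM, and the KO values lay within the WT range. Axin2 and Lef1 did not pass the expression filter. With no filter their log2 differences were -0.09 and -0.03, with limma adjusted p values of 0.845 and 0.938.

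Of the 9 expressed members, 5 were at a higher value in KO and 4 at a lower one, with a median log2 difference of 0.03, against 0.12 for all genes tested, of which 77.6% had a higher and 22.4% a lower value. The members' median became -0.09 with median-of-ratios scaling, against 0.009 for all genes. Apart from Wnt4, the members' 95% intervals together ran from -0.56 (Fzd7) to 0.67 (Fzd4) on the log2 scale, and each included 0. They were narrowest for Fzd1. Under median-of-ratios scaling and quantile normalization the values of Fzd1, Lrp5 and Tcf7l2 changed sign.

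Of 72 other genes of the pathway, grouped by role, 31 passed the expression filter. By limma 0 passed after adjustment, and at an unadjusted p under 0.05 there was 1 higher, Kremen1, and 0 lower, against 7.89% and 2.66% of all genes tested. Their median log2 difference was 0.09, with 24 higher and 7 lower values. KO lay above WT without overlap in 3 (Kremen1, Axin1 and Apc) and below it in 0, against 13.5% and 3.07% of all genes tested, so these counts do not exceed the background.

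**Figure D5:**
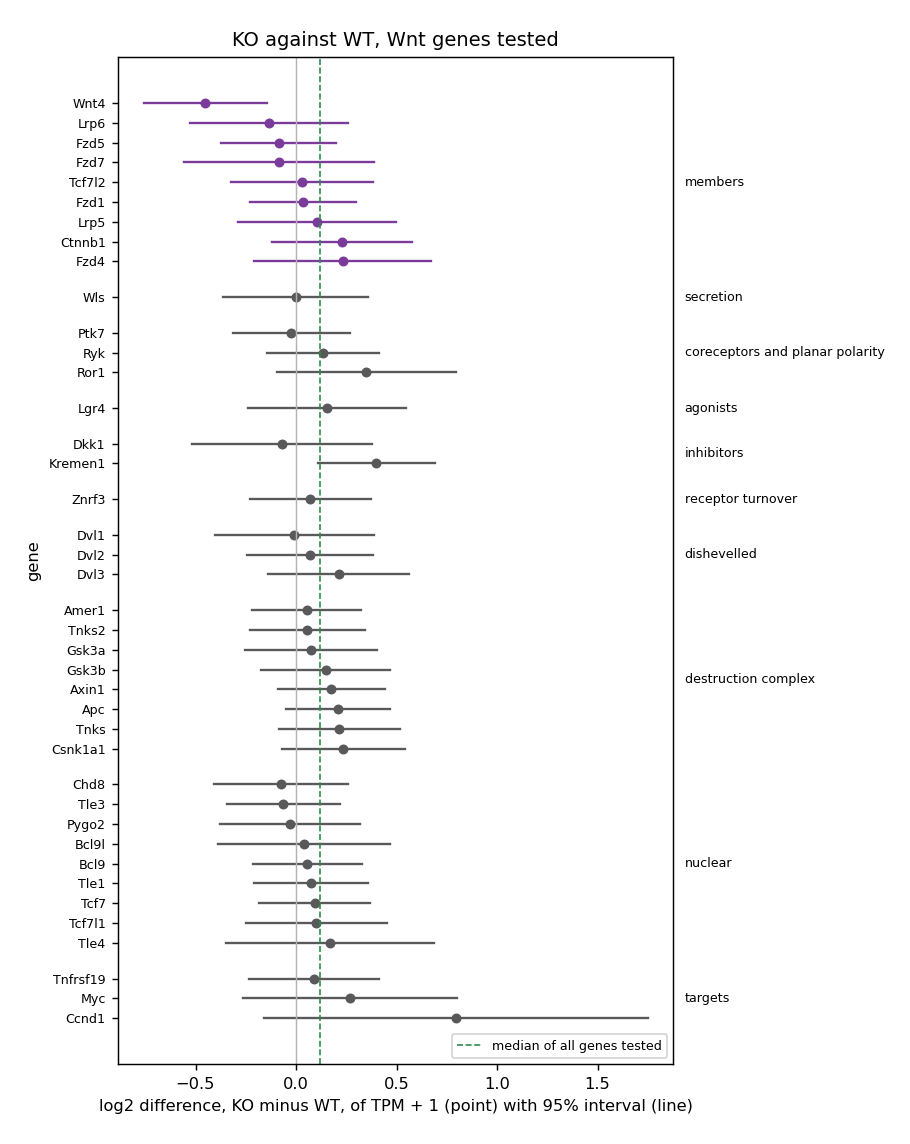
Log2 difference of TPM + 1, KO minus WT, with its 95% interval, for the 9 expressed members and the 31 tested pathway genes grouped by role. The dashed line marks the median of all genes tested, 0.12, and of the intervals those of Wnt4 (below 0) and Kremen1 (above 0) leave out 0, before any adjustment.

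Secretion of Wnt proteins needs the acyltransferase Porcn and the carrier Wls. Wls was expressed in all 6 libraries, at 4.17 ± 0.966 TPM in WT and 4.11 ± 0.261 TPM in KO (SD, n = 3 each). Porcn stayed at 0.60 TPM or below, with means of 0.49 in WT and 0.34 TPM in KO and overlapping groups.

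Among non-Frizzled receptors, Ror1, a receptor for Wnt5a, was high. It held 6.99, 10.41 and 8.62 TPM in WT and 10.58, 14.28 and 9.25 TPM in KO, with KO libraries 1 and 2 above all of WT (log2 difference 0.35, limma adjusted p = 0.567). Its relative Ror2 did not exceed 0.10 TPM. Ryk, another such receptor, held 3.91 ± 0.182 in WT and 4.403 ± 0.472 TPM in KO (SD, n = 3 each). Of the planar polarity genes, Vangl2, which acts with Fzd7 in the Wnt7a response, held 0.79 to 0.92 TPM in WT and 0.85 to 1.03 TPM in KO. It is named here with its values known.

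R-spondins, which raise the number of Frizzled receptors at the surface, were at most 0.30 TPM. Their receptor Lgr4 was expressed, at 2.63 ± 0.777 TPM in WT and 3.003 ± 0.457 TPM in KO (SD, n = 3 each). Ndp, the gene of Norrin, the Fzd4 ligand outside the Wnt family, did not exceed 0.35 TPM. Znrf3, a ligase that removes Frizzled from the surface and is opposed by R-spondins, held 1.61 ± 0.27 TPM in WT and 1.73 ± 0.205 TPM in KO, while its relative Rnf43 did not exceed 0.02 TPM.

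Dkk1, a secreted inhibitor that blocks Lrp5 and Lrp6, was well above any Wnt ligand. It held 8.14, 10.94 and 6.37 TPM in WT and 7.81, 9.12 and 6.78 TPM in KO, with KO inside the WT range (log2 difference -0.07, limma adjusted p = 0.895). Kremen1, the receptor with which Dkk1 clears Lrp6 from the surface, held 6.58, 7.39 and 6.39 TPM in WT and 9.15, 10.09 and 8.56 TPM in KO. Every KO library lay above every WT library, and the KO mean was 136.5% of the WT mean. It differed by 0.40 on the log2 scale, with a standard error of 0.13 (unadjusted p = 0.0133, adjusted p = 0.30 by limma), and did not pass. With median-of-ratios scaling the difference was 0.26, and over the alternative settings its limma adjusted p ran from 0.0557, with protein-coding genes rescaled, to 0.663. Without WT library 1 or without KO library 2 its unadjusted p no longer fell under 0.05.

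Of the 41 pathway genes that were not tested, the groups did not overlap in 4, each with KO above WT and each named after its values were seen. Of all untested genes above 0, the groups did not overlap in 7.46%, counting both directions. The 41 also count 2 genes at 0 in all libraries, so the bases differ. No excess is read from these 4 genes. Apcdd1, a membrane inhibitor of Wnt signalling, held 0.22, 0.35 and 0.24 TPM in WT and 0.57, 0.70 and 0.60 TPM in KO, and with no filter its limma adjusted p was 0.389. Dkk2 held means of 0.457 and 0.663 TPM, Vangl1 of 0.167 and 0.297 TPM, and Rnf43 did not exceed 0.02 TPM. Sost and Rspo4 were listed at 0 in all libraries.

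Of the destruction complex list 8 of 10 genes were tested, Apc2 and Btrc staying below 1 TPM, and all 3 genes of Dishevelled, which relays the receptor signal to the complex, were tested. Dvl1 held 3.49 ± 0.843 TPM in WT and 3.45 ± 0.641 TPM in KO, and Dvl3 3.89 ± 0.705 and 4.65 ± 0.68 TPM (SD, n = 3 each). All 8 tested genes of the destruction complex had a higher value in KO, as did 77.6% of all genes tested. Their median log2 difference was 0.16, against 0.12 for all genes tested. The kinase Csnk1a1 held 16.3 ± 1.54 and 19.4 ± 1.31 TPM and the kinase Gsk3a 7.04 ± 1.01 and 7.44 ± 0.756 TPM. Axin1, the constitutive scaffold, held 5.14, 5.16 and 5.29 TPM in WT and 6.40, 5.63 and 5.99 TPM in KO, without overlap (limma adjusted p = 0.619). Apc held 3.54, 3.57 and 3.16 TPM in WT and 4.21, 4.04 and 4.07 TPM in KO, also without overlap (limma adjusted p = 0.555).

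In the nucleus, the corepressors Tle3 and Tle4 were the most abundant of their group, at 9.29 ± 0.705 and 5.24 ± 1.78 TPM in WT and 8.84 ± 0.376 and 5.93 ± 1.35 TPM in KO (SD, n = 3 each). Of the targets, Myc held 94.91, 124.16 and 71.24 TPM in WT and 142.04, 110.92 and 93.64 TPM in KO, which overlapped (limma adjusted p = 0.69). Ccnd1, which encodes cyclin D1, held 3.67, 1.01 and 4.65 TPM in WT and 4.04, 4.14 and 9.72 TPM in KO. Its highest library was KO 3, where the proliferation markers also summed highest, at 36.9 TPM, and its lowest WT 2, where they summed lowest, at 3.71 TPM. The part of proliferating cells in it was not tested. Both genes also answer to many signals other than Wnt. Sp5, a target more specific to canonical signalling, did not exceed 0.02 TPM.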

How the data were processed

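RNA-seq libraries of sorted satellite cells, 3 WT and 3 KO by the genotype label, were compared. The authors deposited TPM per gene symbol. Kallisto, Trimmomatic 0.33, FastQC and CASAVA are listed, with GRCm38 and mm10 as builds, per the submitters' processing notes. The annotation, strandedness and summing to genes are not given in the sources used here. TPM is scaled to a library total and keeps no depth, which leaves out count models, and a change in abundant RNAs moves all other values of a library.

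A gene entered the test when 3 of the 6 libraries reached 1 TPM, which held for 8971 of 24980. The limma package 3.58.1 (R 4.3.3) was applied to log2(TPM + 1) (eBayes with a trend, two-sided, all 6 libraries in 1 fit). Benjamini-Hochberg adjustment was over all genes tested, with a threshold of 0.05 and 95% intervals from the moderated standard error. Library numbers follow accession order within a group and pair no samples. Promoter windows came from RefSeq and coordinates from GENCODE vM21, by symbol. Figures were drawn with matplotlib 3.10.9.

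Members and lists were chosen with earlier results of these data known. Every expressed member was named, a low member with its values where any library reached 1 TPM, and of the pathway list genes at an unadjusted p under 0.05 and the 2 most abundant per role. Exceptions, Axin2, Lef1, Fzd3 and the low Wnt genes among them, were named because the choice of members lists them or after their values were seen. The other settings tried were pseudocounts of 0.1 and 5, no filter, a filter on mean TPM of 1, median-of-ratios, quantile and protein-coding scaling, robust eBayes, and leaving out each library in turn.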

Additional observations from a re-analysis of the deposited data

How the results depend on the processing

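Under all 14 other settings of the limma fit, 0 members and 0 of the other pathway genes passed the adjusted threshold, and Wnt4 remained lower in KO with an unadjusted p from 0.00167 to 0.0389. The number of members higher at an unadjusted p under 0.05 was 0 and became 1 with protein-coding genes rescaled (Ctnnb1) and ranged from 0 to 1 when a library was left out (Fzd4, without KO library 1). For the other pathway genes that number was 1, was 2 with no filter and 4 with protein-coding genes rescaled. It ranged from 0 to 2 when a library was left out. It was 0 without WT library 1 or KO library 2, and 2 without WT library 2 or WT library 3. With protein-coding genes rescaled the median log2 difference of all genes tested was 0.18, against 0.12 in the main fit. The shares of all genes at an unadjusted p under 0.05 in these settings are not given here. With a threshold of 5 TPM 2 members counted as expressed, and with 0.5 TPM 11. Esr1 passed with protein-coding genes rescaled (log2 difference -0.81, limma adjusted p = 0.0327) and with robust eBayes (-0.86, limma adjusted p = 0.024). In these settings 155 of 8029 and 33 of 8971 genes passed, against 5 of 8971 in the main fit.

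Small differences changed sign. Under median-of-ratios scaling and quantile normalization Fzd1 was at -0.0456 and -0.0455, Lrp5 at -0.00301 and -0.0156, and Tcf7l2 at -0.0884 and -0.115. When a library was left out, Fzd1 ranged from -0.00247 to 0.0533, Fzd7 from -0.293 to 0.0587 and Tcf7l2 from -0.0475 to 0.16, and the median of the 9 members from -0.0475 to 0.0533. The cause was not tested. No paired analysis was possible because the sample titles share no replicate number between the groups. Depth is unknown, so the precision of values below 1 TPM cannot be given.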
